A study of Homo sapiens with 6 samples.

Results

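The genes described are 39 listed members of the amino acid response, namely the transcription factor ATF4, 21 genes that it is known to control or work with, and 17 cytosolic aminoacyl-tRNA synthetases. They were chosen by name, and 38 were found by symbol among the 11079 genes of the table. ALDH1L2, a mitochondrial formyl-tetrahydrofolate dehydrogenase, was not analysed here. All 38 had a mean of at least 1 FPKM (a level corrected for transcript length and library size) over the 6 libraries, so none was removed by the filter on low values.

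The values come from RNA-seq of T24, an established line of human bladder cancer cells. Both groups were infected with a lentivirus and selected with puromycin. The 3 shControl libraries carried a control short hairpin RNA and are labelled wild type, and the 3 shBLACAT3 libraries carried a hairpin against the long noncoding RNA BLACAT3. The labels state neither the number of hairpins or clones nor whether replicates came from separate cultures. The p-values therefore rest on library-to-library spread, part of which may be technical. The hairpin's target was not analysed here, so the labels were not checked against it.

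ATF4 is the main effector of the integrated stress response. When amino acids run short, or when other stresses act on the kinases of the initiation factor eIF2, general translation falls while the ATF4 messenger is translated better because of short upstream reading frames in its leader. ATF4 then pairs with C/EBP proteins and induces enzymes of serine and asparagine synthesis, amino acid transporters and most cytosolic tRNA synthetases. Since much of this control acts on translation, the RNA level of ATF4 is not a measure of ATF4 protein.

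Knockdown cells had more RNA of ATF4, of the asparagine and serine synthesis enzymes ASNS, PSAT1 and PHGDH, of the transporters SLC7A11 and SLC7A5, of the secreted glycoprotein STC2 and of the threonyl-tRNA synthetase TARS1. These 8 rose by 1.32-fold to 1.93-fold in mean FPKM. The tryptophanyl-tRNA synthetase WARS1 fell to 0.426 of its control level. The stress regulators DDIT3, TRIB3, CHAC1, SESN2 and DDIT4 did not pass the test, and neither did the other 15 synthetases. The 8 higher and 1 lower members are those with an adjusted p under 0.05 in limma, run on log2(FPKM + 1) over all 10008 tested genes with Benjamini-Hochberg adjustment. Among all tested genes 9.37% were called, 2.57% higher and 6.80% lower.

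The members as a set lay above the middle of the table. Their median log2 fold change was 0.14, against -0.0025 over all genes tested, and 32 of 38 had a positive value, against 49.4% of all genes. The shBLACAT3 libraries lay wholly above the shControl libraries in 16 members, against 14.1% of all genes, and wholly below in DDIT4 and WARS1, against 18.6% (32.8% in either direction). Each library can also be set against the mean of the shControl libraries gene by gene. The median deviation of the members was then 0.20, 0.11 and 0.15 on the log2 scale in shBLACAT3 replicates 1, 2 and 3, where that of all genes was 0.01, -0.01 and -0.02. Replicate 1 stood highest, with 32 members above the control mean, and replicates 2 and 3 had 27 and 28. Summed over the 38 genes, the members held 0.682%, 0.692% and 0.702% of the listed FPKM in shControl replicates 1, 2 and 3 and 0.890%, 0.850% and 0.813% in shBLACAT3 replicates 1, 2 and 3. Such a sum is carried by abundant genes, PSAT1 before all others.

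**Figure D1:**
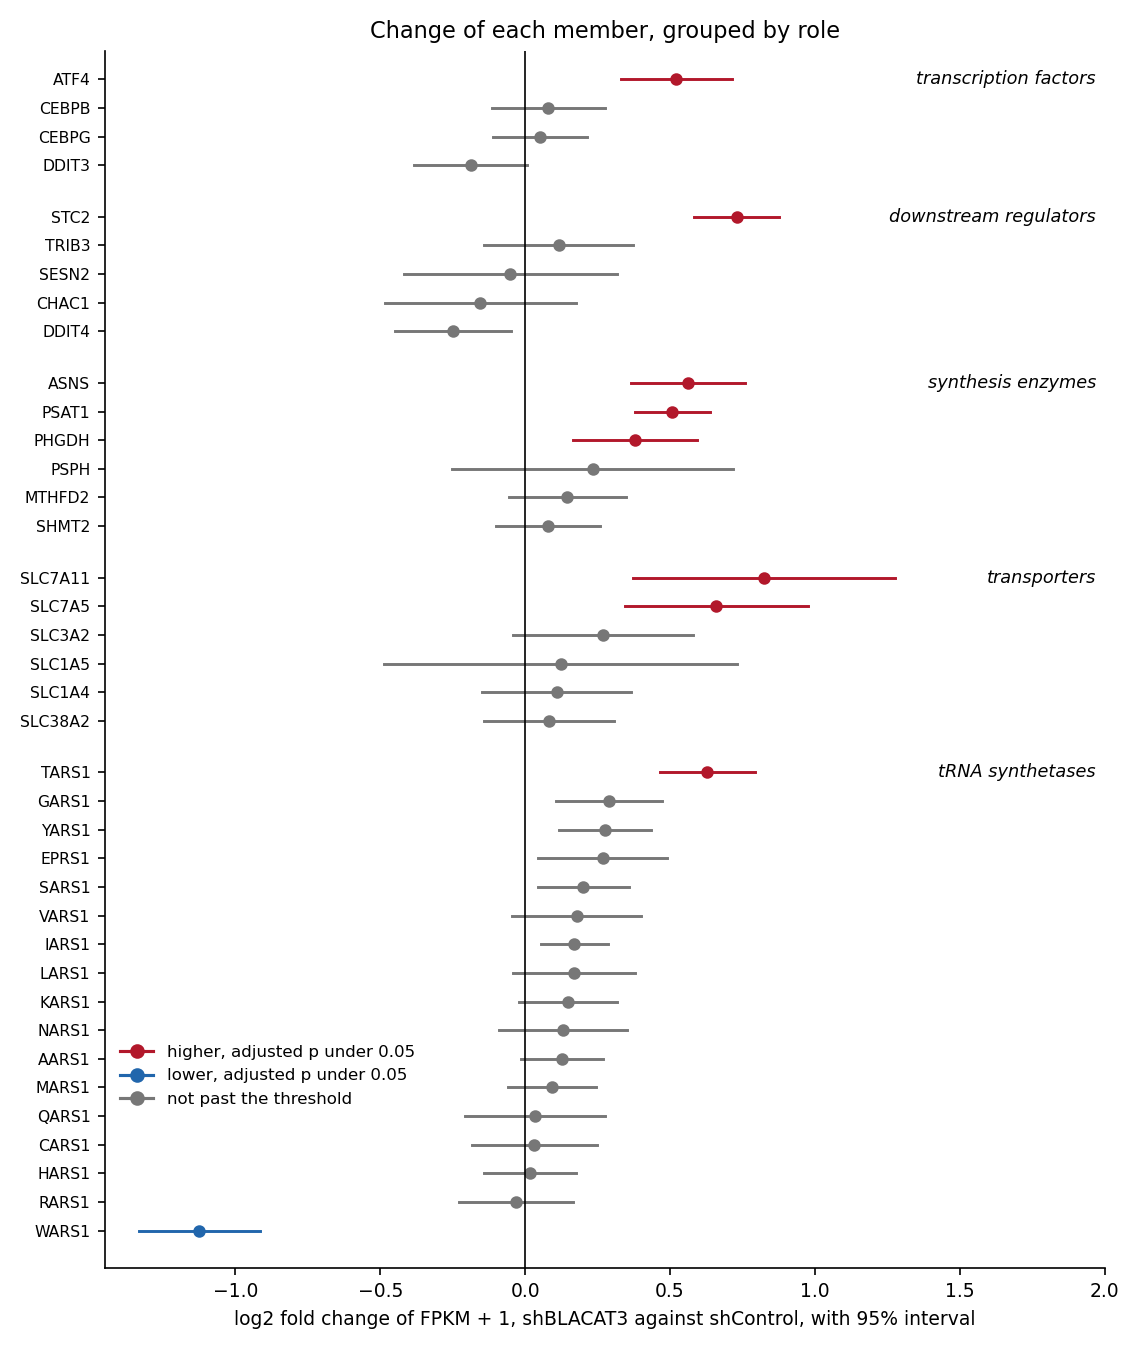
Log2 fold change of FPKM + 1 (x axis) with its 95% interval for each of the 38 measured members, grouped by role, where points to the right are higher in shBLACAT3 cells. The 8 red points are higher and the 1 blue point, WARS1, lower at an adjusted p under 0.05, and the 29 grey points did not pass.

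The shared facts of the series bear on all values below. The listed values summed to between 211958 and 226953 FPKM per library, and FPKM holds no read counts, so the depth behind each value is unknown. Of 14 urothelial and epithelial markers 5 were in the table, namely KRT7, KRT8, KRT18, PPARG and FOXA1, and their summed level was 179.8 to 210.8 FPKM in shControl and 124.1 to 142.5 in shBLACAT3 libraries. KRT8 and KRT18 carry that sum, while KRT7 went the other way (13.6 to 24.2 and 28.6 to 35.5 FPKM), as did PPARG (3.48 to 4.26 and 4.47 to 5.05). The uroplakins UPK1A, UPK1B, UPK2 and UPK3A, the defining genes of mature urothelium, were not among the rows. Of 5 leukocyte markers only CD68 was present, at 0.686 to 1.21 and 0.00379 to 0.624 FPKM, and of 4 endothelial markers none was. In such bulk RNA of a single line, a change in all cells and a change in only some of them cannot be told apart.

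Among the transcription factors, ATF4 stood at 65.6, 70.3 and 70.6 FPKM in shControl replicates 1, 2 and 3 and at 109, 90.3 and 99.0 in shBLACAT3 replicates 1, 2 and 3. All 3 knockdown libraries lay above all controls, and the knockdown group was the more spread of the pair. The mean went from 68.8 ± 2.79 to 99.4 ± 9.42 FPKM (SD, n = 3), a log2 fold change of 0.52 (SE 0.08, adjusted p 0.011 in limma). Without shControl replicate 1 the adjusted p in limma was 0.056. ATF4 passed in 14 of 15 other settings, in some only narrowly. The adjusted p in limma was 0.046 without shControl replicate 2 and 0.045 without shControl replicate 3. With a term for the replicate number it was 0.048. CEBPB and CEBPG, basic leucine zipper partners of ATF4, did not pass (47.4 ± 1.45 and 50.3 ± 4.88 FPKM for CEBPB, 17.6 ± 0.453 and 18.3 ± 1.15 for CEBPG, SD, n = 3). Their 95% intervals on the log2 scale ran from -0.11 to 0.27 and from -0.11 to 0.21.

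DDIT3 encodes CHOP, the factor that turns a lasting stress response towards cell death. Its values were 16.8, 14.3 and 17.0 FPKM in shControl and 14.3, 13.6 and 13.7 in shBLACAT3 libraries. The knockdown libraries were tightly grouped at the lower edge of the controls. The log2 fold change of -0.19 (95% interval -0.38 to 0.01, adjusted p 0.21 in limma) did not pass. DDIT3 and MARS1 share 62 exon bases on opposite strands in GENCODE 29, and whether the authors' counting used strand is not given in the sources used here.

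Of the 5 regulators and effectors downstream of ATF4, STC2 was the 1 called gene, where 9.37% of all genes were called. STC2, stanniocalcin 2, is a secreted glycoprotein induced in stress of the endoplasmic reticulum and in hypoxia. It stood at 33.0, 34.2 and 35.04 FPKM in shControl and 60.2, 54.1 and 57.4 in shBLACAT3 libraries, so the gap between the groups was far wider than the spread within either. STC2 had a log2 fold change of 0.73 (SE 0.06, adjusted p 0.00096 in limma), and its rank among all tested genes was 71 from the highest.

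The other 4 include the genes most often read as signs of an acute ATF4 response. TRIB3, a pseudokinase that feeds back on ATF4, was at 18.9, 20.4 and 22.5 FPKM in shControl and 25.1, 19.5 and 22.7 in shBLACAT3 libraries. CHAC1, which degrades glutathione, was at 4.86, 4.86 and 5.56 and at 4.68, 3.51 and 5.36. In both genes the groups overlapped. Their log2 fold changes were 0.12 for TRIB3 (95% interval -0.14 to 0.37) and -0.16 for CHAC1 (-0.48 to 0.17).

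SESN2 and DDIT4 both restrain the growth kinase complex mTORC1. SESN2 went from 6.93 ± 0.758 to 6.73 ± 1.49 FPKM (SD, n = 3), and without shBLACAT3 replicate 2 its log2 fold change turned from -0.05 to 0.09. DDIT4 was at 40.6, 37.3 and 40.9 FPKM in shControl and 36.4, 30.0 and 33.2 in shBLACAT3 libraries. Every knockdown library lay below every control, but the log2 fold change of -0.25 (95% interval -0.45 to -0.05) had an adjusted p of 0.12 in limma and did not pass.

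**Figure D2:**
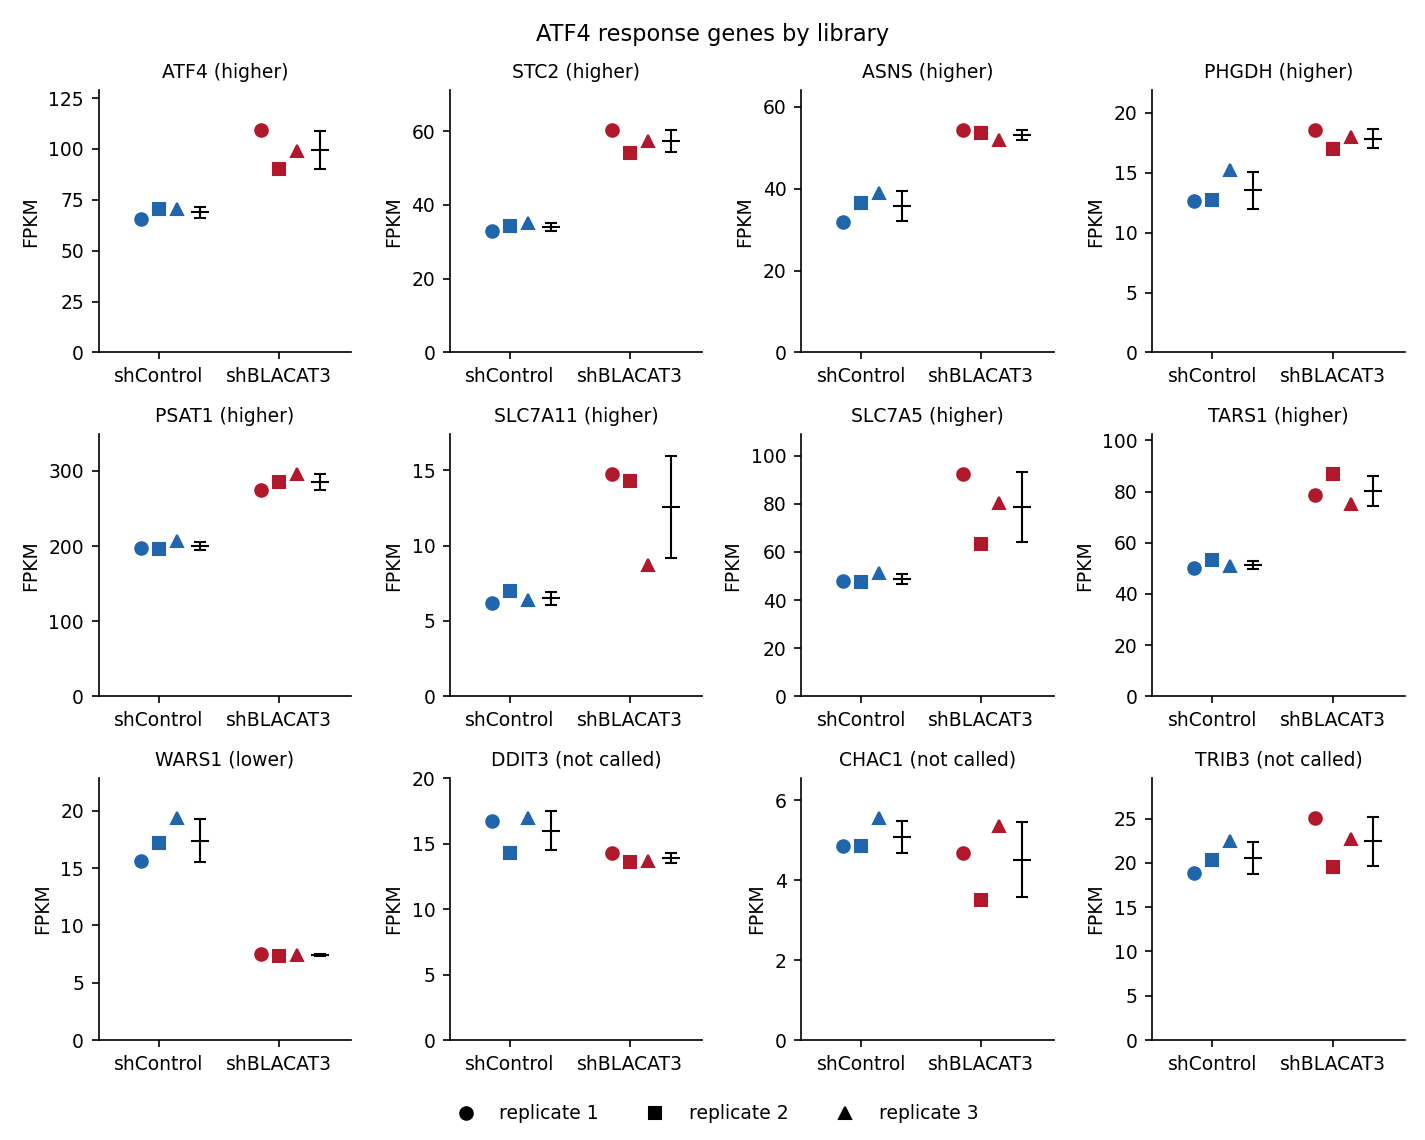
FPKM (y axis, from 0) in each library for the 9 called members and for DDIT3, CHAC1 and TRIB3, with shControl in blue, shBLACAT3 in red, the replicate number by symbol, and black marks for the mean ± SD. The groups do not overlap in the 9 called genes, while SLC7A11 in shBLACAT3 replicate 3 (8.69 FPKM) lies well under the other 2 knockdown libraries.

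Of the 6 measured enzymes of serine, asparagine and mitochondrial one-carbon metabolism, 3 rose and 0 fell, where 2.57% of all genes rose and 6.80% fell. The median log2 fold change of the 6 was 0.31. ASNS, asparagine synthetase, makes asparagine from aspartate and glutamine and is the classical ATF4 target. Its promoter is shown because it holds the C/EBP-ATF response element core, TGATGNAA, to which ATF4 and a C/EBP partner bind. The sequence is the 250 bases before a start site of ASNS in RefSeq (GRCh38.p14, chr7:97872409-97872658, minus strand), 5′ to 3′ on the gene's strand, with the core in capitals. The core begins 68 bases before the start site.
ASNS: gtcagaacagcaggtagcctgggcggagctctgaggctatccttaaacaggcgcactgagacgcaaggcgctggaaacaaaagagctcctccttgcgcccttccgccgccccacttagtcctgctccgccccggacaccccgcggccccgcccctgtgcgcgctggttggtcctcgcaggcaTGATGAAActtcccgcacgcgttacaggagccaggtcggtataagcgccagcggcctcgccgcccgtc

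ASNS stood at 31.8, 36.5 and 39.1 FPKM in shControl and at 54.2, 53.5 and 51.8 in shBLACAT3 libraries. The knockdown libraries lay close together and above every control. The log2 fold change was 0.56 (SE 0.08, adjusted p 0.0094 in limma), and the adjusted p was at most 0.041 under each of the 15 other settings tried. In GENCODE 29 the exons of ASNS share 1985 bases with a noncoding transcript on the same strand that was not used here.

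Serine is made from a glycolytic intermediate in 3 steps, by PHGDH, PSAT1 and PSPH in that order. PHGDH, the first and usually limiting dehydrogenase, stood at 12.6, 12.7 and 15.3 FPKM in shControl and 18.5, 17.0 and 18.0 in shBLACAT3 libraries. PHGDH passed narrowly, with a log2 fold change of 0.38 (SE 0.09, adjusted p 0.048 in limma). Its call was lost in 9 of 15 other settings, with the adjusted p reaching 0.16 without shControl replicate 1, 0.15 without shControl replicate 2 and 0.14 without shBLACAT3 replicate 1.

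PSAT1, the transaminase of the second step, was the most abundant member in both groups. It stood at 197, 196 and 207 FPKM in shControl and 274, 286 and 296 in shBLACAT3 libraries, with narrow groups set far apart. PSAT1 had a log2 fold change of 0.51 (SE 0.05, adjusted p 0.0026 in limma), and it passed in all 15 other settings. PSPH, the phosphatase of the last step, varied too much between libraries for a difference of this size to be read: it ran from 6.79 to 11.6 FPKM in shControl and from 8.57 to 12.7 in shBLACAT3 libraries (95% interval of the log2 fold change -0.25 to 0.72).

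SHMT2 and MTHFD2 carry the carbon taken from serine through the mitochondrial folate cycle. SHMT2 went from 19.2 ± 1.49 to 20.3 ± 0.802 FPKM and MTHFD2 from 49.8 ± 5.30 to 55.0 ± 0.600 (SD, n = 3), and neither passed. The upper ends of their 95% intervals were 0.26 and 0.35 on the log2 scale, under the estimates for ASNS and PSAT1. In MTHFD2 all shBLACAT3 libraries lay above all controls, while in SHMT2 the groups overlapped. Of 5 tested enzymes of the cytosolic folate cycle 1 rose, where 2.57% of all genes rose. It was the thymidylate synthase TYMS (74.6 ± 2.90 to 92.6 ± 4.50 FPKM, SD, n = 3, adjusted p 0.027 in limma), which makes a precursor of DNA. TYMS was not called in every set of 5 libraries (0 to 1 genes of this list with 1 library left out).

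Of the 6 amino acid transporters 2 rose and 0 fell, where 2.57% of all genes rose and 6.80% fell. SLC7A11, the light chain of the antiporter that imports cystine in exchange for glutamate, had the largest positive log2 fold change of all members. It stood at 6.18, 6.97 and 6.36 FPKM in shControl and 14.7, 14.3 and 8.69 in shBLACAT3 libraries. Replicates 1 and 2 of the knockdown were more than doubled and replicate 3 was nearer to the controls. The log2 fold change was 0.82 (SE 0.19, adjusted p 0.043 in limma). It was 1.05 without shBLACAT3 replicate 3 (adjusted p 0.0022), and the call was lost when any of the other 5 libraries was left out (adjusted p 0.10 to 0.14 in limma) or with a term for the replicate number (0.066).

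SLC7A5 is the light chain of LAT1, which imports leucine and other large neutral amino acids. It stood at 48.1, 47.4 and 51.2 FPKM in shControl and 92.3, 63.4 and 80.2 in shBLACAT3 libraries. The knockdown values were widely spread but all above the controls, with a log2 fold change of 0.66 (SE 0.13, adjusted p 0.029 in limma). The call was lost without any of the 3 shControl libraries (0.10, 0.097 and 0.077 for replicates 1, 2 and 3) and without shBLACAT3 replicate 1 (0.058) or 3 (0.054).

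SLC3A2 encodes CD98, the heavy chain that both of these light chains need to reach the cell surface. It was at 24.5, 18.6 and 24.03 FPKM in shControl and 29.8, 23.7 and 27.7 in shBLACAT3 libraries, and the groups overlapped. The log2 fold change of 0.27 (95% interval -0.04 to 0.58, adjusted p 0.25 in limma) did not pass. With a term for the replicate number the adjusted p in limma was 0.076, also not past the threshold.

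The neutral amino acid transporters SLC1A4, SLC1A5 and SLC38A2 did not pass, with log2 fold changes of 0.11, 0.12 and 0.08. SLC1A5, the glutamine carrier, had 31.4, 48.1 and 52.8 FPKM in shControl replicates 1, 2 and 3 and 34.0, 52.1 and 58.4 in shBLACAT3 replicates 1, 2 and 3. Most of its spread went with the replicate number, and each shBLACAT3 library stood a little above the shControl library of the same number. With a term for the replicate number the adjusted p was 0.19 in limma, against 0.80 without it. The sign of SLC1A5 turned without shControl replicate 1 (-0.10) or shBLACAT3 replicate 3 (-0.03).

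NRF2, the factor of the oxidative stress response, is also known to drive SLC7A11. Limma called 0 of 10 other tested NRF2 targets, among them NQO1, HMOX1 and GCLM. Since 9.37% of all genes were called, 0 of 10 is near the background. Of these 10, 1 had an unadjusted p under 0.05, and their median log2 fold change was 0.05. Their part in the change of SLC7A11 was not tested.

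The cytosolic tRNA synthetases attach each amino acid to its tRNA. Of the 17 members, 1 rose and 1 fell, where 2.57% of all genes rose and 6.80% fell. A positive log2 fold change was found in 15, against 49.4% of all genes. Without WARS1 the median over the other 16 was 0.16, and 6 of them had an unadjusted p under 0.05, against 10.5% of all genes with such a p and a positive change.

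TARS1, threonyl-tRNA synthetase, was the called one of these. It stood at 50.1, 53.2 and 51.0 FPKM in shControl and 78.6, 86.7 and 75.3 in shBLACAT3 libraries. The lowest knockdown library was well above the highest control. This gave a log2 fold change of 0.63 (SE 0.07, adjusted p 0.0027 in limma), and TARS1 passed in all 15 other settings.

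Next in order were GARS1, YARS1, EPRS1 and SARS1, the enzymes for glycine, tyrosine, glutamate with proline, and serine. GARS1 stood at 83.5, 79.8 and 95.9 FPKM in shControl and 105, 107 and 105 in shBLACAT3 libraries. YARS1 stood at 18.7, 18.7 and 20.6 and at 24.6, 22.8 and 23.4. In these 4 enzymes all shBLACAT3 libraries lay above all controls, as in 14.1% of all genes tested. The log2 fold changes of the 4, from 0.20 to 0.29, had adjusted p of 0.051 to 0.13 in limma. Small changes of method moved some of them over the line. YARS1 passed with a lower filter on low values (0.048) or with array weights (0.040), GARS1 with quantile normalization (0.039) or without shControl replicate 3 (0.039), and EPRS1 and LARS1 without shBLACAT3 replicate 3 (0.025 and 0.041).

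AARS1, IARS1 and KARS1 also had all shBLACAT3 libraries above all controls, with log2 fold changes of 0.13, 0.17 and 0.15. Of the 17 synthetases 8 lay so, against 14.1% of all genes. The leucine, valine, asparagine and methionine enzymes LARS1, VARS1, NARS1 and MARS1 had overlapping groups and 0.09 to 0.18. CARS1, QARS1, HARS1 and RARS1 lay near 0, between -0.03 and 0.03, and each of these 4 changed sign when 1 library was left out. Their 95% intervals reached at most 0.28, well under the change of TARS1.

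In the shControl libraries the most abundant of these messengers per length was GARS1 (86.4 ± 8.44 FPKM, SD, n = 3), followed by KARS1 (81.2 ± 1.01), NARS1 (76.0 ± 8.03) and EPRS1 (72.4 ± 2.53). From one of these 4 to the next the ranges of library values overlapped. HARS1 (12.7 ± 0.293) and CARS1 (12.3 ± 1.14) were the lowest. In shBLACAT3 libraries WARS1 took the lowest place, at 7.40 ± 0.0940 FPKM.

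Promoters of many synthetases hold the core shown above for ASNS. RefSeq (GRCh38.p14) gave windows of 250 bases before to 50 after a start site for 32 of the 39 members. TGATGNAA, searched on both strands, was present in 13 of these 32 genes, against 2.57% of the 8223 tested genes with a window and 3.62% of all 35116 windows. Because members were picked as known ATF4 targets, this share describes the list and is no test of it. Among 14 synthetases with a window 7 held the core, namely AARS1, CARS1, GARS1, IARS1, MARS1, NARS1 and TARS1. The stretches below show the core, in capitals, of 4 synthetases and of CHAC1, which holds it and did not pass the test. Each is read 5′ to 3′ on the gene's strand, where the core appears as its reverse complement. They lie at chr5:33440957-33440984 (plus strand), chr7:30594835-30594862 (plus), chr9:92293693-92293720 (minus), chr16:70289676-70289703 (minus) and chr15:40953252-40953279 (plus), in the order printed.
TARS1: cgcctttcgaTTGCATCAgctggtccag
GARS1: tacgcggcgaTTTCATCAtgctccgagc
IARS1: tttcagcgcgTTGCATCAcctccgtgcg
AARS1: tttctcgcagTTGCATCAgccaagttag
CHAC1: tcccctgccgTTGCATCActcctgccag

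Of the 13 members with it, 2 rose (ASNS and TARS1) and the median log2 fold change was 0.13. Of the 19 members with a window and no match, 5 rose and the median was 0.12. Over all genes tested 2.57% rose and the median was -0.0025. No match says only that these letters are not in this window.

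WARS1, tryptophanyl-tRNA synthetase, was the member that fell and the one with the largest change. It stood at 15.6, 17.2 and 19.4 FPKM in shControl and at 7.51, 7.32 and 7.38 in shBLACAT3 libraries. The 3 knockdown libraries were almost equal and all lay below the lowest control. This was a log2 fold change of -1.12 (SE 0.09, adjusted p 0.00075 in limma), and it ran from -1.21 to -1.05 over the 15 other settings, all past the threshold. The exons of WARS1 share 272 bases with WDR25 on the opposite strand in GENCODE 29, and WDR25 was listed at 0.278 to 0.645 FPKM.

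WARS1 is known as a gene that interferon gamma induces. The sequence below is shown because it was the only member window with the core of the interferon-stimulated response element, which is GAAA, any 2 bases and GAAA again, and because it also holds the gamma-activated site, TTCNNNGAA, which reads the same on both strands. It is the 250 bases before the downstream of 2 WARS1 start sites in RefSeq (GRCh38.p14, chr14:100375348-100375597, minus strand), 5′ to 3′ on the gene's strand, with both motifs in capitals, the gamma-activated site first. These motifs were found in 3.79% and 8.27% of tested genes with a window and in 3.57% and 7.66% of all windows. The gamma-activated site was also found in windows of SLC3A2, CARS1 and TARS1, of which TARS1 rose and the other two did not pass.
WARS1: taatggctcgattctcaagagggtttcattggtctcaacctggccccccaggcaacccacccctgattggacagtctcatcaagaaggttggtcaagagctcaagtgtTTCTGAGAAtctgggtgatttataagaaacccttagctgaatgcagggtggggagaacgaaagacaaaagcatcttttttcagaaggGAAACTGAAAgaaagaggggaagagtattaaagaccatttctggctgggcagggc

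Genes of the interferon gamma response fell as well. Of 9 tested genes 9 fell and 0 rose in limma, with a median log2 fold change of -1.48, where 6.80% of all genes fell. GBP1, a guanylate-binding protein, went from 6.53 ± 0.342 to 2.64 ± 0.143 FPKM and IRF1, a transcription factor, from 5.45 ± 0.465 to 2.91 ± 0.136 (SD, n = 3). Their log2 fold changes were -1.05 and -0.72. IFIT1 fell the most, by 5.06 on the log2 scale. Their part in the change of WARS1 was not tested.

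The mitochondrial synthetases, which are separate genes for most amino acids, gave a comparison inside the same pathway. Of 17 genes limma called 0, where 9.37% of all genes were called. At an unadjusted p under 0.05 there were 3 (against 25.6% of all genes), and the median log2 fold change was 0.0067. For 13 amino acids a cytosolic member could be paired with its mitochondrial counterpart, and the cytosolic change was the larger, as a signed value, in 10 pairs, with a median difference of 0.15 on the log2 scale. The widest gaps were those of threonine, where TARS1 had 0.63 and TARS2 0.0067, and tryptophan, where WARS1 had -1.12 and WARS2 0.30. WARS2 went from 3.69 ± 0.155 to 4.79 ± 0.602 FPKM (SD, n = 3) and did not pass (adjusted p 0.11 in limma). The difference between the cytosolic and mitochondrial genes was not tested.

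**Figure D3:**
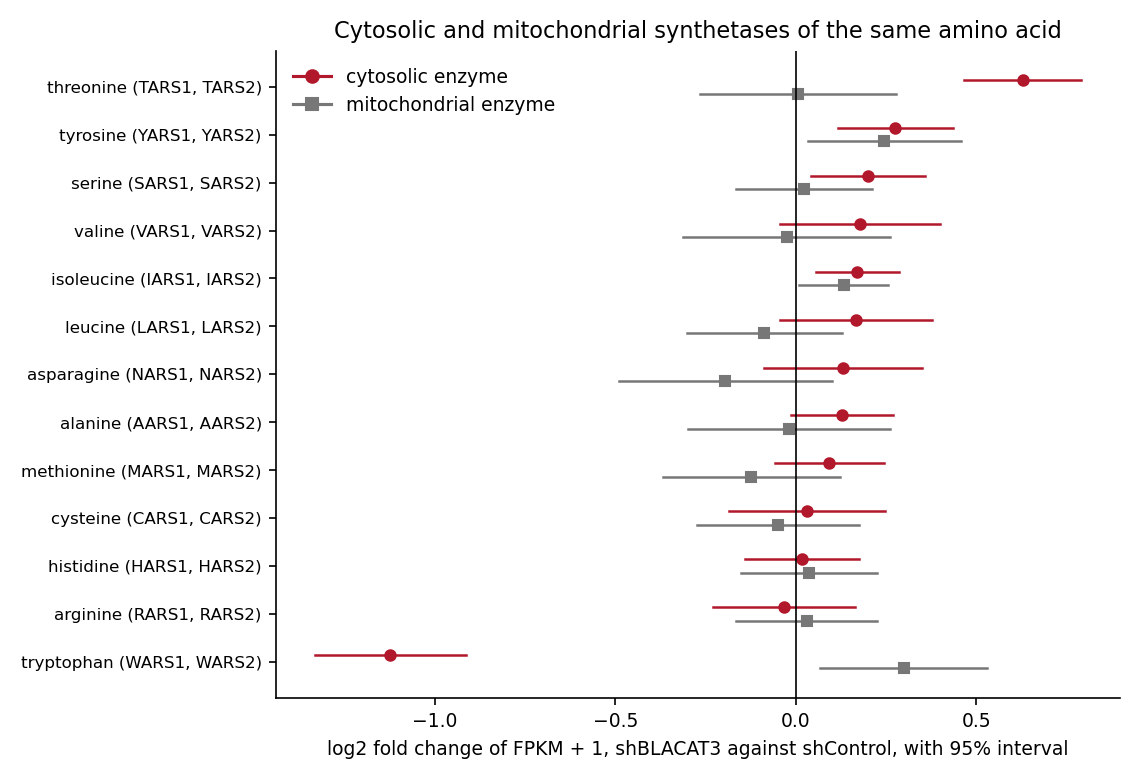
Log2 fold change of FPKM + 1 (x axis) with its 95% interval for the cytosolic (red circles) and mitochondrial (grey squares) synthetase of 13 amino acids. TARS1 lies to the right at 0.63 and WARS1 to the left at -1.12, while the mitochondrial enzymes lie between -0.19 and 0.30.

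Several cytosolic synthetases are parts of a multisynthetase complex held together by the scaffold proteins AIMP1, AIMP2 and EEF1E1. Of 10 of its genes, a list drawn up after the values were seen, limma called 0, where 9.37% of all genes were called. An unadjusted p under 0.05 was found in 3 (25.6% of all genes had one). A positive log2 fold change was found in 9, against 49.4% of all genes (median 0.12, range -0.03 to 0.34). The called synthetases TARS1 and WARS1 are both outside this complex. FARSA and FARSB, the subunits of the cytosolic phenylalanine enzyme, which are not among the members, had log2 fold changes of 0.12 and 0.07 and did not pass.

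The core list of the integrated stress response comprises the 4 eIF2 kinases, the subunits of eIF2 and of its exchange factor eIF2B, the phosphatase subunits that reset it and a few regulators. Of 18 genes limma called 0, where 9.37% of all genes were called, and 1 was called with array weights. An unadjusted p under 0.05 was found in 4 of them (2 higher and 2 lower), near the 25.6% of all genes, and log2 fold changes ran from -0.31 to 0.22. The lowest was that of PPP1R15A, or GADD34, the stress-induced phosphatase subunit (35.2 ± 2.40 and 28.4 ± 4.11 FPKM, SD, n = 3, adjusted p 0.15 in limma). EIF2AK4, which encodes the amino acid sensor GCN2, stood at 7.11 ± 0.103 and 7.77 ± 0.327 FPKM, and EIF2AK3, which encodes PERK, at 5.06 ± 0.539 and 4.86 ± 0.888. Phosphorylation of eIF2, the step these kinases carry out, is not read by RNA levels.

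Of 31 further genes listed as known ATF4 targets 24 were tested, and 3 rose and 1 fell. Among all tested genes 2.57% rose and 6.80% fell. GDF15, a stress-induced cytokine, went from 25.3 ± 2.24 to 44.5 ± 4.05 FPKM (SD, n = 3, adjusted p 0.0040 in limma). GOT1, the cytosolic aspartate transaminase, went from 31.9 ± 2.45 to 43.2 ± 1.04 (0.014), and ATF5, a factor close to ATF4, from 11.3 ± 1.25 to 16.4 ± 1.67 (0.035). LAMP3, a lysosomal membrane protein that interferon also induces, fell from 3.997 ± 0.197 to 2.06 ± 0.135. ATF3, an early partner and target of ATF4, was at 7.65, 13.5 and 13.7 FPKM in shControl and 5.31, 3.21 and 6.83 in shBLACAT3 libraries, below every control but not called (log2 fold change -1.05, adjusted p 0.075 in limma). The number of higher genes in this list was 1 without shControl replicate 1 or 2 or shBLACAT3 replicate 1, and 5 with quantile normalization.

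Of 14 genes of the unfolded protein response arms that run through ATF6 and XBP1, 8 fell and 0 rose, with a median log2 fold change of -0.35, where 6.80% of all genes fell. HSPA5, the main chaperone of the endoplasmic reticulum, stood at 317, 315 and 311 FPKM in shControl and at 214, 222 and 214 in shBLACAT3 libraries. PDIA4, CALR and DNAJB9, a disulfide isomerase, a calcium-binding chaperone and a co-chaperone, fell by 0.50, 0.48 and 0.49 on the log2 scale. XBP1 itself did not pass (37.4 ± 8.41 and 34.4 ± 4.18 FPKM, SD, n = 3). All 14 had a negative log2 fold change, and in 12 the shBLACAT3 libraries lay wholly below the controls, against 18.6% of all genes. The number called lower was 2 without shControl replicate 1, 2 or 3 or shBLACAT3 replicate 1, and 4 with the replicate block. Calls over all genes also dropped in these settings, from 938 to between 387 and 612.

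**Figure D4:**
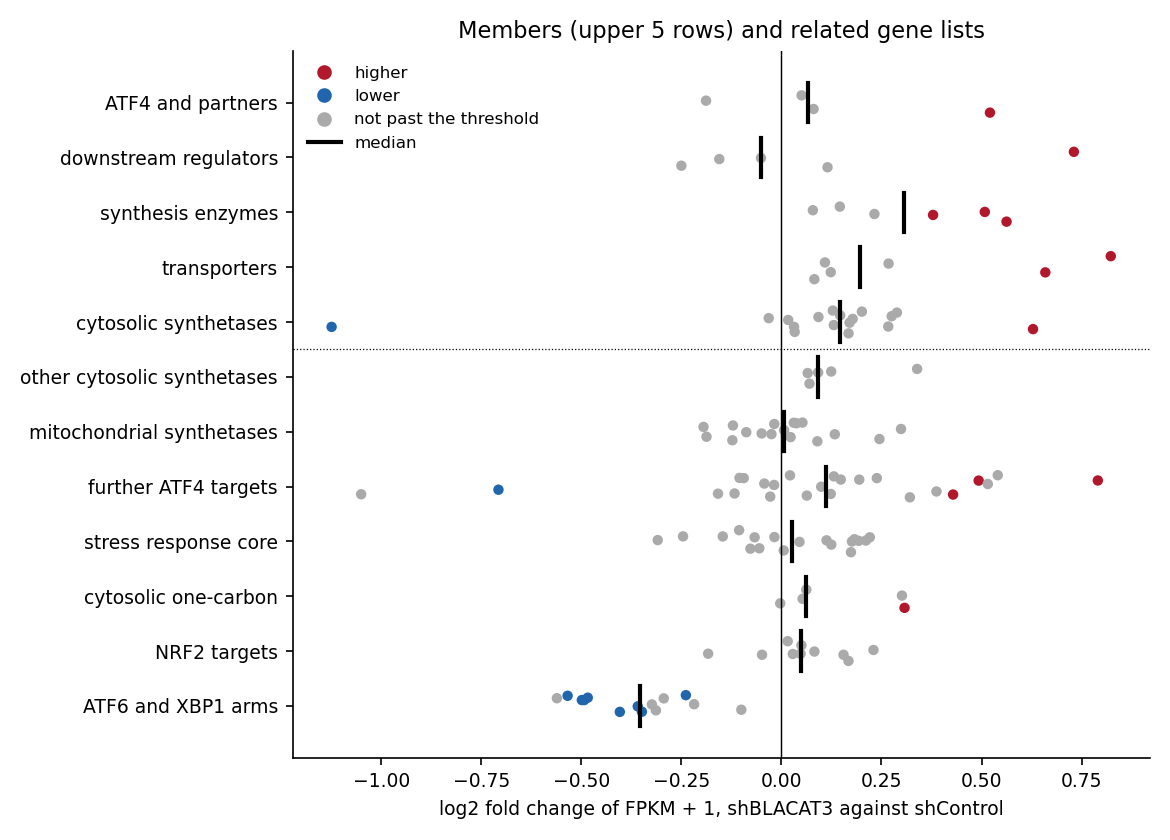
Log2 fold change of FPKM + 1 (x axis) of single genes in the 5 groups of members, above the dotted line, and in 7 of the related lists (the interferon gamma list, with a median of -1.48, is not drawn), with black bars for the median of each and colours for calls at an adjusted p under 0.05. The synthesis enzymes have the highest median (0.31) and the ATF6 and XBP1 genes the lowest of those drawn (-0.35). Within the member groups WARS1, DDIT4, DDIT3, CHAC1, SESN2 and RARS1 lie left of 0.

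WARS1, STC2, PSAT1, TARS1 and ASNS passed whichever library was left out. ATF4 lost its call without shControl replicate 1 alone, SLC7A5 and SLC7A11 without any of 5 libraries and PHGDH without any of 5. The number of members called higher was 4 without shControl replicate 1, 5 without shControl replicate 2 or shBLACAT3 replicate 1, and up to 8 without another library. Calls over all genes, 938 with all 6 libraries, were 387, 444 and 542 in the first 3 of these settings. Without another library they were 441 to 1315. WARS1 was the 1 member called lower, whichever library was left out.

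**Figure D5:**
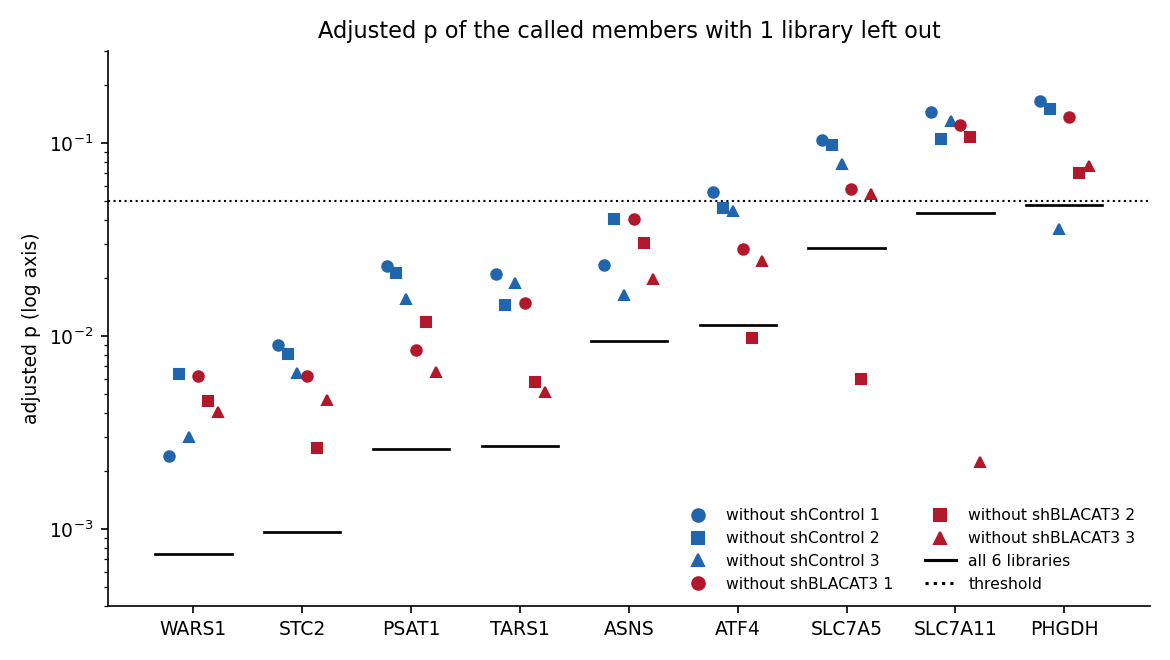
Adjusted p (log axis) of the 9 called members when 1 library is left out, with blue for a shControl and red for a shBLACAT3 library, symbols for the replicate, a black line for the value with all 6 libraries and a dotted line at 0.05. WARS1, STC2, PSAT1, TARS1 and ASNS stay under the threshold throughout, and SLC7A5, SLC7A11 and PHGDH each cross it in 5 of 6 cases.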

How the data were processed

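Total RNA was turned into sequencing libraries with a stranded kit, per the labels' protocols. Per the submitters' processing notes cutadapt, HISAT2 2.1.0 and StringTie were used, with no role or order given. Build, annotation and strand setting: not given in the sources used here. Because the header names no unit, the deposited table was taken to hold FPKM, judged by its numbers and the authors' tools. NC columns were taken as shControl and SH columns as shBLACAT3, numbered like the sample titles.

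Of 11081 rows 11007 were matched to a symbol by Ensembl identifier through a supplied table of gene names, and for 2 symbols several rows were added up. Each row reached 0.5 in the mean of its higher group, and genes below this were not analysed here. The 10008 genes averaging 1 FPKM or more entered limma 3.58.1 (R 4.3.3) as log2(FPKM + 1), in a model of group alone with a trend of variance on level. Its two-sided p-values were adjusted by Benjamini-Hochberg and called under 0.05. A fold change on this scale understates that of genes with low values. The test was also run on simulated data, with no outcome given here. The changes simulated were all larger than those of the uncalled members.

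Every member is accounted for. Called members, and ATF4, ASNS, CHAC1, TRIB3, DDIT3 and SLC3A2 whether called or not, have the value of every library, and up to 4 called genes of each other list may be named. Further genes, and library values beyond this, were chosen after their values were seen. The members and lists were chosen with earlier results of these data known. A few genes of the related lists are not reported here and were left out of the lists' counts. Other settings were a replicate block, a pseudocount of 0.1, a filter at 0.1 or none, median scaling, quantile normalization, no trend, array weights, rows tested singly, and each library left out. These settings were not 15 independent checks. The filter at 0.1 and no filter both tested 11079 genes and called 1186. Rows tested singly gave 938 calls, as the main fit did. Motifs were searched with Python 3.11.15 and figures drawn with matplotlib 3.10.9. Gene overlaps come from GENCODE 29, and no gene coordinates of the table are given because its build is not stated.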

Additional observations from a re-analysis of the deposited data

How the results depend on the processing

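The 38 members were recomputed under 15 other settings. In 531 of these 570 comparisons direction and call stayed, in 21 a call was lost, in 7 a call was gained and in 11 the sign turned, each of these last in a member that was not called. With a term for the replicate number (replicate block) 612 genes were called in place of 938, and 6 members were higher in place of 8, without PHGDH (0.075) and SLC7A11 (0.066). Same-numbered libraries deviated together only weakly (correlations of 0.10, 0.12 and 0.090 across genes), although each library correlated best with its own number, so the numbers were not taken as pairs. Leaving out 1 library gave 387 to 1315 genes called, 4 to 8 members higher and 1 member lower. With a lower filter or none 1186 genes were called, and 64.3% of calls were lower under quantile normalization in place of 72.6%, where the median of all genes moved by 0.03, and 55.7% without shBLACAT3 replicate 3. Array weights turned SESN2 to 0.045 and SLC1A5 to -0.023. With 1 library left out, the log2 fold change ran from -0.19 to 0.087 for SESN2, -0.099 to 0.35 for SLC1A5, -0.021 to 0.099 for CARS1, -0.018 to 0.053 for HARS1, -0.053 to 0.10 for QARS1 and -0.10 to 0.045 for RARS1. The cause of these changes was not tested. Depth is unknown, so counting error could not be set apart from the spread between libraries.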
